A study of Mus musculus with 15 samples.

Results

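Integrins are adhesion receptors, each made of an alpha chain and a beta chain. Transcripts of 10 integrin genes were followed across 5 sorted populations of mouse CD8 T cells, out of 23284 genes in the deposited expression table. The 10 genes were chosen by symbol, with earlier results of these data known. They were the alpha chain genes Itgae, Itga4, Itga1, Itgav, Itgal and Itgax, and the beta chain genes Itgb7, Itgb1, Itgb3 and Itgb2. On the log2(FPKM + 1) scale the largest differences were in the alpha chains Itgae and Itga4. As a ratio of FPKM, Itgae in naive over cocktail CD44+CD62L- cells, at 121-fold, and Itga1 in IL-2 over naive cells, at 91.5-fold, exceeded any difference in Itga4, at most 22.2-fold. Itga4 averaged 33.1 ± 0.722 FPKM in cocktail CD44+CD62L- cells and 2.23 ± 0.0674 FPKM in IL-2 CD44+CD62L- cells (SD, n = 3 each). Itgae averaged 0.324 to 0.412 FPKM in the 3 cocktail populations and 2.31 FPKM in the IL-2 cells, against 39.0 FPKM in naive cells.

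An alpha chain and a beta chain pair in the cell before they reach the surface, and the pair decides which ligand the cell can hold on to. In T cells alphaL with beta2 forms LFA-1, which binds ICAMs on other cells. Alpha4 with beta1 forms VLA-4, which binds VCAM-1 and fibronectin, and alpha4 with beta7 binds MAdCAM-1 on gut vessels. AlphaE with beta7 forms the CD103 integrin, which binds E-cadherin on epithelium and marks many tissue-resident CD8 T cells. Alpha1 with beta1 forms VLA-1, a collagen receptor of resident and effector T cells. AlphaV pairs with several beta chains, beta3 among them, and such pairs bind vitronectin, osteopontin and latent TGF-beta. AlphaX with beta2 is the CD11c integrin, best known from dendritic cells.

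All cells came from OT-I mice, whose T cells carry a transgenic receptor for the ovalbumin peptide SIINFEKL. Of the 5 populations 4 were cultured for 14 days, having first met bone marrow-derived dendritic cells loaded with that peptide, and the naive population had 0 days in vitro. The cocktail held TWS119, an inhibitor of glycogen synthase kinase, the glycolysis inhibitor 2-deoxyglucose, and the cytokines IL-21 and IL-7. Cells grown in it were sorted into CD44loCD62L+, CD44+CD62L+ and CD44+CD62L- populations. Cells grown in IL-2 were sorted as CD44+CD62L-. Naive cells were sorted as CD44loCD62L+ per the sample labels and as CD44-CD62L+ per the design text. CD44 is itself an adhesion receptor that is raised on antigen-experienced T cells, and CD62L is the selectin by which naive and central memory T cells enter lymph nodes. Each population had 3 libraries, which the design text calls technical replicates, so SDs and p-values measure only the spread between libraries of 1 RNA source. The number of mice or cultures behind a population is not given in the sources used here.

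The values are FPKM, fragments scaled to transcript length and library size, so levels of different genes can be set side by side per unit of length. Library sums ran from 669341 to 781949 FPKM, and 10006 to 10473 genes per library reached 1 FPKM. The depth of each library relative to the median library, read from the steps of low values, ran from 0.930 to 1.17. All 8 CD8 T cell markers examined averaged at least 1 FPKM in all 5 populations. A list of B cell markers summed to between 2.08 and 6.84 FPKM in the libraries of cultured cells, against 42.3 to 43.8 FPKM in those of naive cells. All 6 of its tested genes fell in each cultured population relative to naive cells, 5 of them having been tested through their level in naive cells alone, and the part of B cell RNA in the comparisons with naive cells was not tested. None of the 10 integrin genes was at 0 in any library. All 10 reached a mean of 1 FPKM in a population and were tested among 11242 genes, Itgax through the IL-2 cells alone and Itga1 through the IL-2 and cocktail CD44+CD62L- cells. A gene was called when limma gave a Benjamini-Hochberg adjusted p under 0.05 and the log2 fold change, on the log2(FPKM + 1) scale, was at least 1 in size. That scale understates the fold change of low genes.

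The question of the main comparison was how culture in the cocktail differs from culture in IL-2, with the gate held at CD44+CD62L-. Of the 10 integrin genes, 1 rose and 3 fell in cocktail cells relative to IL-2 cells. Over all genes tested 4.64% rose and 3.2% fell, 7.85% together. Itga4 rose, and Itga1, Itgae and Itgav fell, so the 4 genes called were all alpha chains, which are also the larger part of the 10. Itgae averaged 0.324 FPKM in the cocktail cells, under the filter, so a fall was the one call it could receive here. With a pseudocount of 5 FPKM only Itga4 stayed called. The 3 libraries of the cocktail cells lay apart from the 3 of the IL-2 cells for 10 of 10 integrin genes, and for 84.6% of all genes tested, so separation alone set no gene apart. The median log2 fold change was 0.03 over the 10 genes and -0.01 over all genes tested.

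**Figure D1:**
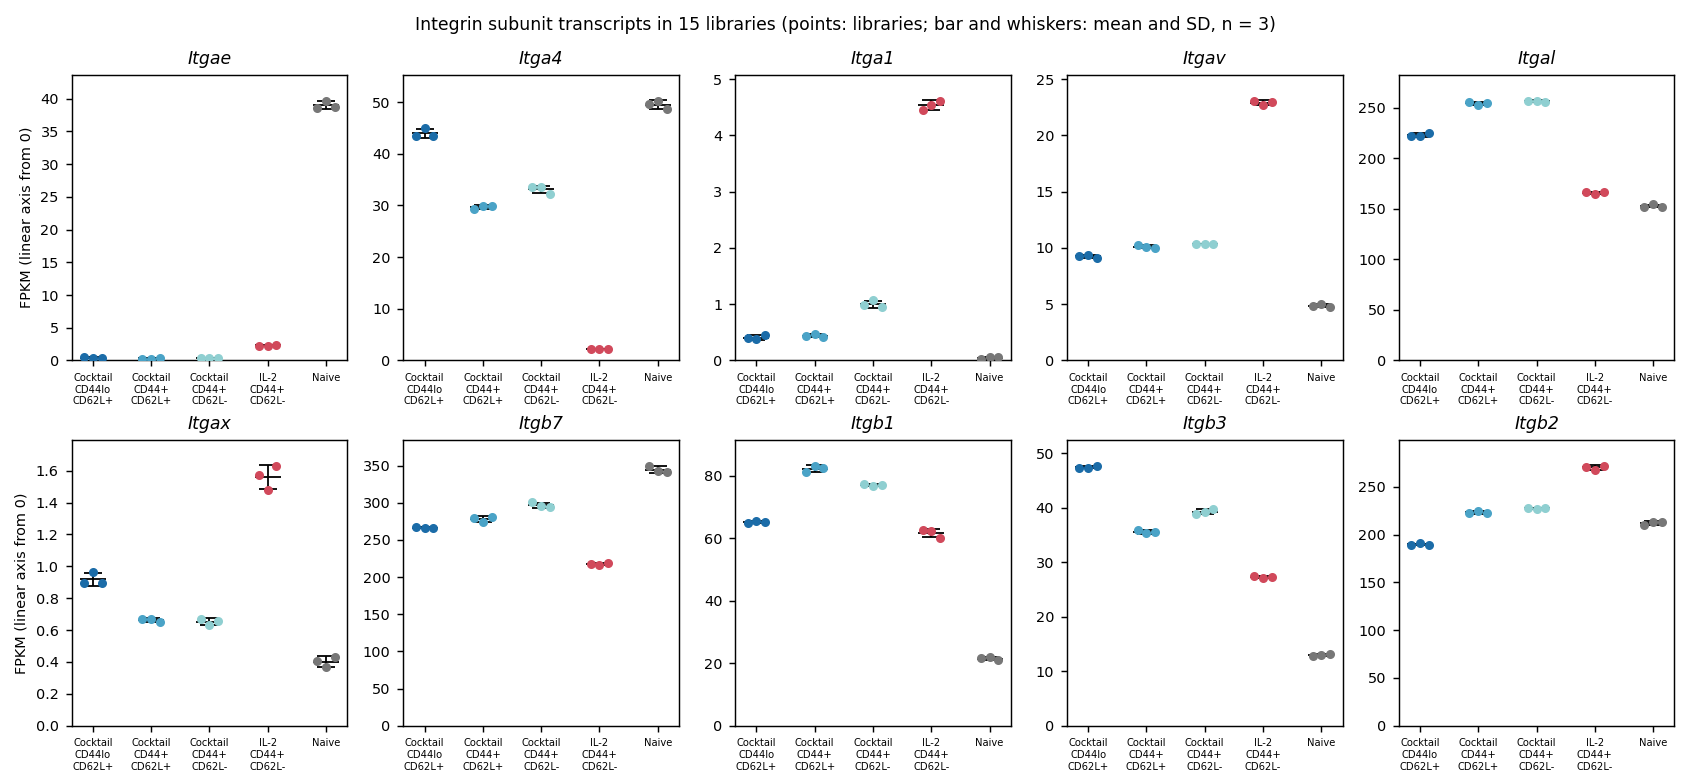
FPKM of the 10 integrin genes in 15 libraries, 1 panel per gene with its own linear axis from 0. Points are libraries, and the bar and whiskers are mean and SD over 3 libraries; Itga4 is low in the IL-2 cells, at 2.18 to 2.31 FPKM, and Itgae is high in the naive cells, at 38.6 to 39.7 FPKM.

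Of the 4 alpha chain genes called, 3 had a promoter sequence in the RefSeq table of GRCm38.p6, and these are shown because the 3 genes moved in opposite directions between the cultures. Each runs from 250 bases before the gene's start to 50 after it, 5′ to 3′ on the gene's own strand. Capitals mark the letters of 3 motifs searched on both strands. These were a Runx core (TGTGGT or ACCACA), a Smad core (CAGAC or GTCTG) and a GC box (GGGCGG or CCGCCC).
Itga4, chr2:79255176-79255475, plus strand: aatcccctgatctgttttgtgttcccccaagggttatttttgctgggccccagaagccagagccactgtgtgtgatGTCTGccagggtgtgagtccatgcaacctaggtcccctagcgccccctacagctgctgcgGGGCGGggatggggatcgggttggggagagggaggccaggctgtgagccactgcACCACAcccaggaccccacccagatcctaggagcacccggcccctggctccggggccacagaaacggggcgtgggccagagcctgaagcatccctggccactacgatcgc
Itga1, chr13:115101915-115102214, minus strand: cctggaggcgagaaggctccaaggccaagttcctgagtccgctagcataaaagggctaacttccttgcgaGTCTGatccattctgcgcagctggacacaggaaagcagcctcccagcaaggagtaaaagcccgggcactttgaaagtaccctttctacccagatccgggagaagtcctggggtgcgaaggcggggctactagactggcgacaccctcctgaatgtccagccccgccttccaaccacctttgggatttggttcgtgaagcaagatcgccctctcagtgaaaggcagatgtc
Itgav, chr2:83724147-83724446, plus strand: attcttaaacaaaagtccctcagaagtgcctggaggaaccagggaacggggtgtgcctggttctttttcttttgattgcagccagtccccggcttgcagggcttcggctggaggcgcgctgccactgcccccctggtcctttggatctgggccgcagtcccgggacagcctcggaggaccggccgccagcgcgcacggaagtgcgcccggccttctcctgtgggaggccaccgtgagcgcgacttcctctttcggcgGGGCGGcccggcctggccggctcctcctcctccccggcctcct
Counted from the start as base 1, the Itga4 window held Smad letters at -174, a GC box at -114 and Runx letters at -60, and none of these overlapped. The Itga1 window held Smad letters at -180, and the Itgav window held a GC box at 8. Of 32851 promoters of the same length, 16.8% held the Runx letters, 49.6% the Smad letters and 35.7% the GC box, so matches of this kind are common. They describe letters and are not evidence of binding. Of the 10 integrin genes, 6 had a promoter in the table, and 2 of those held Runx letters, 5 Smad letters and 3 a GC box. Itgae, Itgal, Itgb2 and Itgb3 were not in it.

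Itga4, at chromosome 2, 79255426 to 79333123 on the plus strand of GRCm38, encodes the alpha4 chain shared by VLA-4 and the gut-homing alpha4beta7 integrin. Its 3 libraries read 43.4, 44.9 and 43.5 FPKM in cocktail CD44loCD62L+ cells, 29.4, 30.0 and 29.9 FPKM in cocktail CD44+CD62L+ cells and 33.5, 33.5 and 32.3 FPKM in cocktail CD44+CD62L- cells. In IL-2 cells they read 2.21, 2.18 and 2.31 FPKM, against 49.6, 50.3 and 48.6 FPKM in naive cells. The IL-2 libraries were thus the low ones, and no 2 populations overlapped. In CD44+CD62L- cells the cocktail level was 14.8-fold that in IL-2, with a log2 fold change of 3.40 (SE 0.0216, adjusted p = 4.66e-19). Relative to naive cells Itga4 fell by 3.96 on the log2 scale in IL-2 cells (SE 0.0216, adjusted p = 7.87e-21), a level 22.2-fold lower. Its differences from naive cells in the cocktail cells, of -0.17, -0.72 and -0.57 for CD44loCD62L+, CD44+CD62L+ and CD44+CD62L- cells, were under the minimum fold. RNA was taken from many sorted cells at once, so fewer cells with the transcript and less transcript per cell cannot be told apart, here or for the other genes. Cerkl, on the opposite strand, shares exon sequence with the end of Itga4 and averaged 1.31 to 3.23 FPKM in the 5 populations. Whether the counting used strand is not given in the sources used here.

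Itgae, at chromosome 11, 73090583 to 73147446 on the plus strand, encodes the alphaE chain of CD103. The cocktail libraries read 0.471, 0.341 and 0.422 FPKM in CD44loCD62L+ cells, 0.280, 0.275 and 0.417 FPKM in CD44+CD62L+ cells and 0.322, 0.345 and 0.303 FPKM in CD44+CD62L- cells. IL-2 cells had 2.25, 2.27 and 2.41 FPKM, against 38.6, 39.7 and 38.7 FPKM in naive cells. Naive cells stood highest and IL-2 cells next, and the 3 cocktail populations overlapped with one another at the bottom. Itgae fell in cocktail relative to IL-2 CD44+CD62L- cells, with a log2 fold change of -1.32 (SE 0.0449, adjusted p = 5.80e-12), and the IL-2 level was 7.13-fold that of the cocktail cells. With a pseudocount of 5 FPKM in place of 1 that difference shrank to -0.46 and was not called. Itgae was under the filter of 1 FPKM in each cocktail population, so against IL-2 or naive cells a fall was the one call it could receive there. Relative to naive cells it fell by 4.83 in the cocktail CD44loCD62L+, 4.92 in the CD44+CD62L+ and 4.92 in the CD44+CD62L- cells, and by 3.60 in the IL-2 cells, on the log2 scale. These 4 comparisons share the naive libraries. The naive level was 121-fold that of the cocktail CD44+CD62L- cells. Haspin, listed under its older symbol Gsg2, lies within Itgae on the opposite strand without shared exon sequence and averaged 4.09 to 15.6 FPKM, highest in IL-2 cells, and its part in the Itgae values was not tested.

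Itga1, at chromosome 13, 114953096 to 115101964 on the minus strand, encodes the alpha1 chain of the collagen receptor VLA-1. Cocktail libraries read 0.397, 0.376 and 0.448 FPKM in CD44loCD62L+ cells, 0.444, 0.469 and 0.409 FPKM in CD44+CD62L+ cells and 0.988, 1.07 and 0.950 FPKM in CD44+CD62L- cells. Those of IL-2 cells read 4.45, 4.54 and 4.62 FPKM, against 0.0300, 0.0532 and 0.0655 FPKM in naive cells. The order was IL-2 cells, cocktail CD44+CD62L- cells, then the 2 overlapping CD62L+ cocktail populations, then naive cells. Itga1 fell by 1.47 on the log2 scale in cocktail relative to IL-2 CD44+CD62L- cells (SE 0.0355, adjusted p = 1.70e-13). It rose in IL-2 relative to naive cells, by 2.40 (SE 0.0355, adjusted p = 2.03e-16), a level 91.5-fold higher against naive libraries of at most 0.0655 FPKM. Naive cells were under the filter for Itga1, so against them a rise was the one call it could receive. Both calls were lost with a pseudocount of 5 FPKM, at -0.67 and 0.92, and the gene is low in every population. Pelo lies within Itga1 on the same strand, without shared exon sequence, and averaged 22.9 FPKM in IL-2 cells and 6.09 to 9.36 FPKM in the other populations, so it too was highest in IL-2 cells. Its part in the Itga1 values was not tested. The predicted gene Gm49395 shares exons with Itga1 and has no row of its own.

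Itgav, at chromosome 2, 83724397 to 83806916 on the plus strand, encodes the alphaV chain. Cocktail libraries read 9.25, 9.40 and 9.11 FPKM in CD44loCD62L+ cells, 10.3, 10.1 and 9.97 FPKM in CD44+CD62L+ cells and 10.3, 10.4 and 10.3 FPKM in CD44+CD62L- cells. IL-2 libraries read 23.1, 22.7 and 22.9 FPKM, against 4.88, 5.0 and 4.73 FPKM in naive cells. All 5 populations were separate, with the 3 cocktail populations close together between IL-2 and naive cells. Itgav fell in cocktail relative to IL-2 CD44+CD62L- cells, with a log2 fold change of -1.08 (SE 0.0201, adjusted p = 1.20e-14), and this call was lost with a pseudocount of 5 FPKM, at -0.86. It rose by 2.03 in IL-2 relative to naive cells (SE 0.0201, adjusted p = 3.00e-18), a level 4.71-fold higher. In the cocktail CD44loCD62L+, CD44+CD62L+ and CD44+CD62L- cells its differences from naive cells were 0.81, 0.92 and 0.95, just under the minimum fold. Gm13684, a noncoding transcript on the opposite strand, shares exon sequence with Itgav, and the pseudogene Dnmt3l-ps1 lies within it on that strand without shared exon sequence. Neither has a row of its own, so reads from Gm13684 and from Itgav cannot be told apart without the use of strand.

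Itgal and Itgax completed the alpha chains, and neither was called in any of the 7 comparisons. Itgal, at chromosome 7, 127296260 to 127335138 on the plus strand, encodes the alphaL chain of LFA-1 and was the most abundant of the 6 alpha chain transcripts in each population. It averaged 223 ± 1.81 FPKM in cocktail CD44loCD62L+, 254 ± 1.67 FPKM in cocktail CD44+CD62L+ and 257 ± 0.890 FPKM in cocktail CD44+CD62L- cells (SD, n = 3 each). Its mean was 166 ± 1.12 FPKM in IL-2 cells and 153 ± 1.34 FPKM in naive cells. The CD44+ cocktail populations overlapped, and both lay above the others. Relative to IL-2 cells the cocktail CD44+CD62L- cells had a log2 fold change of 0.63 (SE 0.00892, adjusted p = 8.29e-16), larger than the spread between libraries and smaller than the minimum fold.

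Itgax, at chromosome 7, 128129547 to 128150657 on the plus strand, stayed low. Its means were 0.918 ± 0.0408 FPKM in cocktail CD44loCD62L+, 0.664 ± 0.0107 FPKM in cocktail CD44+CD62L+ and 0.653 ± 0.0212 FPKM in cocktail CD44+CD62L- cells, then 1.56 ± 0.0764 FPKM in IL-2 cells and 0.402 ± 0.0334 FPKM in naive cells. IL-2 cells stood highest and naive cells lowest, and the CD44+ cocktail populations overlapped. With a pseudocount of 0.1 FPKM it was called lower in cocktail than in IL-2 CD44+CD62L- cells, at -1.14, and higher in IL-2 than in naive cells, at 1.73. Itgax passed the filter through IL-2 cells alone, so these were the only directions it could be called in. Since CD11c is a dendritic cell integrin and the cultures began with dendritic cells, the levels of dendritic cell and macrophage markers belong beside these values. The 21 of 22 listed markers found in the table summed to 293 to 302 FPKM in the cocktail CD44loCD62L+, 307 to 316 FPKM in the cocktail CD44+CD62L+ and 329 to 337 FPKM in the cocktail CD44+CD62L- libraries. They summed to 234 to 237 FPKM in IL-2 libraries and 331 to 335 FPKM in naive libraries, and Cst3 or Ctss was the highest in each population. The markers did not move together. Xcr1, Batf3 and Irf8, which dendritic cells use and of which Batf3 and Irf8 are also known from activated T cells, were highest in IL-2 cells, as Itgax was. Xcr1 averaged 0.560, 0.614 and 0.937 FPKM in cocktail CD44loCD62L+, CD44+CD62L+ and CD44+CD62L- cells and 5.65 FPKM in IL-2 cells, against 0.429 FPKM in naive cells. Batf3 averaged 3.90 to 16.6 FPKM in the cocktail populations and 24.9 FPKM in IL-2 cells, against 0.136 FPKM in naive cells, and Irf8 averaged 21.4 to 26.3 FPKM in the cocktail populations and 45.3 FPKM in IL-2 cells, against 4.06 FPKM in naive cells. In cocktail relative to IL-2 CD44+CD62L- cells, 6 of the 14 tested markers rose, namely Lyz2, H2-Ab1, Cd74, Ctss, C1qb and H2-Aa, and 2 fell, namely Xcr1 and Irf8. These were 42.9% and 14.3% of the list, where 4.64% of all genes rose and 3.2% fell. Xcr1 passed the filter through IL-2 cells alone, so a fall was the one call it could receive. Those that rose, other than Ctss, averaged under 1 FPKM in IL-2 cells, so here they could be called only as a rise. Clec9a was at 0 in every cultured library, and C1qa and Fcgr1 in every IL-2 library. The part of dendritic cell or macrophage RNA in the Itgax values was not tested.

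Among the beta chains, Itgb7 and Itgb2 were abundant and not called in any comparison, while Itgb1 and Itgb3 rose in every cultured population relative to naive cells. Itgb7, at chromosome 15, 102215995 to 102231944 on the minus strand, encodes the beta7 chain shared by CD103 and alpha4beta7. It was the most abundant of the 10 genes in every population other than IL-2 cells, where Itgb2 was higher. It averaged 267 ± 0.651 FPKM in cocktail CD44loCD62L+, 278 ± 4.08 FPKM in cocktail CD44+CD62L+ and 297 ± 3.34 FPKM in cocktail CD44+CD62L- cells. In IL-2 cells it averaged 217 ± 1.11 FPKM, against 345 ± 4.48 FPKM in naive cells. All populations were separate, with naive cells highest and IL-2 cells lowest. No difference reached the minimum fold, and the largest was -0.66 in IL-2 relative to naive cells (SE 0.0119, adjusted p = 1.67e-15). Beta7 is also known from mast cells, and 4 mast cell genes were read beside it. Kit, shared by mast cells and progenitors, averaged 13.04 to 15.98 FPKM in the cocktail populations and 1.20 FPKM in IL-2 cells, against 0.261 FPKM in naive cells. Cpa3 averaged 0.478 to 0.689 FPKM in the cocktail populations and 0.902 FPKM in IL-2 cells, against 0.101 FPKM in naive cells. Fcer1a averaged at most 0.0527 FPKM in the cocktail populations and 0.152 FPKM in IL-2 cells and was at 0 in naive cells, and Mcpt4 was at 0 in all 15 libraries. Their part in the Itgb7 values was not tested.

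Itgb2, at chromosome 10, 77530252 to 77565708 on the plus strand, encodes the beta2 chain of leukocyte integrins. Its means were 189.7 ± 0.909 FPKM in cocktail CD44loCD62L+, 223 ± 1.31 FPKM in cocktail CD44+CD62L+, 227 ± 0.422 FPKM in cocktail CD44+CD62L-, 270.1 ± 2.27 FPKM in IL-2 and 212 ± 1.94 FPKM in naive cells. It spanned 0.51 on the log2 scale between the lowest and the highest population, the smallest span of the 10 genes, and Itgae had the largest, at 4.92.

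Itgb1, at chromosome 8, 128685654 to 128733200 on the plus strand, encodes the beta1 chain, the common partner of the VLA integrins. Cocktail libraries read 64.9, 65.6 and 65.1 FPKM in CD44loCD62L+ cells, 81.1, 83.2 and 82.5 FPKM in CD44+CD62L+ cells and 77.2, 76.8 and 77.0 FPKM in CD44+CD62L- cells. IL-2 libraries read 62.6, 62.2 and 60.2 FPKM, against 21.5, 21.95 and 21.1 FPKM in naive cells. Every cultured library lay above every naive one, and no 2 populations overlapped. Relative to naive cells Itgb1 rose by 1.56 in cocktail CD44loCD62L+, 1.89 in cocktail CD44+CD62L+, 1.79 in cocktail CD44+CD62L- and 1.48 in IL-2 cells (SE 0.0169 each), with adjusted p of at most 1.67e-17. In CD44+CD62L- cells the log2 fold change of cocktail over IL-2 was 0.32 (SE 0.0169, adjusted p = 7.33e-10), under the minimum fold.

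Itgb3, at chromosome 11, 104608000 to 104670476 on the plus strand, encodes the beta3 chain, a partner of alphaV. Cocktail libraries read 47.4, 47.4 and 47.7 FPKM in CD44loCD62L+ cells, 36.0, 35.3 and 35.5 FPKM in CD44+CD62L+ cells and 38.8, 39.2 and 39.8 FPKM in CD44+CD62L- cells. IL-2 libraries read 27.5, 27.1 and 27.3 FPKM, against 12.7, 12.99 and 13.2 FPKM in naive cells. The populations were all separate, highest in cocktail CD44loCD62L+ and lowest in naive cells. Itgb3 rose relative to naive cells by 1.80 in cocktail CD44loCD62L+, 1.39 in cocktail CD44+CD62L+ and 1.53 in cocktail CD44+CD62L- cells, and by 1.02 in IL-2 cells (SE 0.0149 each, adjusted p of at most 1.84e-16). The IL-2 value sat at the minimum fold, and median-ratio scaling or a pseudocount of 5 FPKM moved it to 0.999 or 0.85 and ended the call. Beta3 is a platelet integrin too. The 8 platelet and megakaryocyte markers together summed to 1.78 to 1.90 FPKM in cocktail CD44loCD62L+, 1.06 to 1.21 FPKM in cocktail CD44+CD62L+ and 2.00 to 2.40 FPKM in cocktail CD44+CD62L- libraries, and to 0.465 to 0.521 FPKM in IL-2 libraries, against 1.36 to 1.57 FPKM in naive libraries. This sum was higher in all cocktail libraries than in IL-2 libraries, as Itgb3 was, while naive libraries, lowest in Itgb3, lay above the IL-2 ones in it. Pf4, the one marker of the list that was tested, through the cocktail CD44+CD62L- cells alone, averaged 1.27 FPKM in cocktail CD44+CD62L- and 0.0593 FPKM in IL-2 cells and was at 0 in naive libraries. It rose in cocktail CD44+CD62L- cells, by 1.09 relative to IL-2 cells and 1.17 relative to naive cells, and a rise was the one call it could receive there. Gp6 was at 0 in all 15 libraries, and the part of platelet RNA in the Itgb3 values was not tested.

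The comparisons with naive cells ask what culture changed relative to resting cells. In IL-2 cells 4 of 10 integrin genes rose and 2 fell, where 17.6% of all genes tested rose and 13.7% fell, 31.3% together. The 4 were Itga1, Itgav, Itgb1 and Itgb3, and the 2 were Itga4 and Itgae. Itga1 was under the filter in naive cells, so a rise was the one call it could receive. In the cocktail CD44loCD62L+ cells 2 rose and 1 fell, where 11.6% of all genes rose and 6.11% fell, 17.7% together. In the cocktail CD44+CD62L+ cells the same counts of 2 and 1 stood against 14.4% and 8.44%, or 22.8% together, and in the cocktail CD44+CD62L- cells against 13.9% and 8.59%, or 22.5% together. In each cocktail population the genes were Itgb1 and Itgb3 up and Itgae down, in comparisons that share the naive libraries. Itgae was under the filter in the cocktail cells, so a fall was the one call it could receive in them. Libraries did not overlap for 10 of 10 integrin genes in each of the 4 comparisons, where the share of all genes was 91.7% for IL-2 cells and 89.2%, 91% and 90.6% for the cocktail CD44loCD62L+, CD44+CD62L+ and CD44+CD62L- cells. Median log2 fold changes of the 10 genes were 0.44, 0.35 and 0.49 in those cocktail populations and 0.61 in IL-2 cells, while all genes tested had medians of -0.02, -0.0043, -0.00071 and 0.02.

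**Figure D2:**
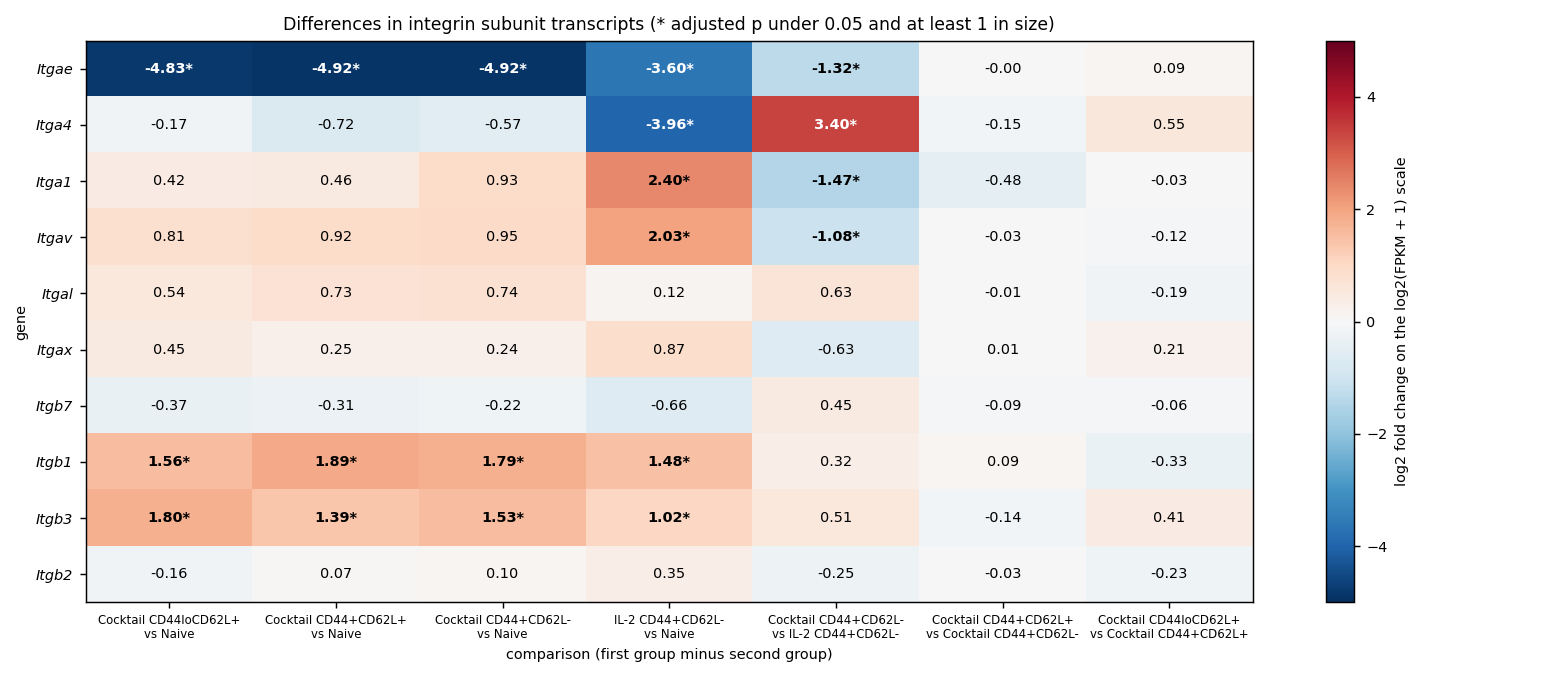
Log2 fold changes of the 10 integrin genes on the log2(FPKM + 1) scale, first population minus second, in 7 comparisons; rows are genes, color gives the size and sign, and stars mark calls. Calls stand in the 5 comparisons with naive or IL-2 cells, and the 2 between cocktail gates, where 0.116% and 2.68% of all genes were called, have none.

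Within the cocktail culture, few of all genes tested were called between the gates, so 0 calls among 10 set the integrin genes in no way apart. Of the 10 integrin genes 0 were called between the cocktail CD44+CD62L+ and CD44+CD62L- cells, where 0.0356% of all genes rose and 0.0801% fell, 0.116% together, and 6 had an adjusted p under 0.05 in limma, as many as had an unadjusted p under 0.05, where the shares of all genes were 48.3% and 54.5%. Libraries did not overlap for 7 of the 10, where the share of all genes was 55.7%, and the largest difference was -0.48 for Itga1 (SE 0.0355, adjusted p = 2.85e-07). With a pseudocount of 0.1 FPKM that difference was -1.03 and was called. Between the cocktail CD44loCD62L+ and CD44+CD62L+ cells 0 were called as well, where 0.418% of all genes rose and 2.26% fell, 2.68% together, and 8 had an adjusted p, and as many an unadjusted p, under 0.05 and non-overlapping libraries. Of all genes 73.4% had such an adjusted p, 75.2% such an unadjusted p and 76.1% libraries that did not overlap. The 2 largest differences were in Itga4, at 0.55 (SE 0.0216, adjusted p = 5.97e-11), and Itgb3, at 0.41 (SE 0.0149, adjusted p = 2.92e-11). Itgb1 and Itgb2 had differences of -0.33 and -0.23. Median log2 fold changes of the 10 genes were -0.03 and -0.05 in these comparisons, against -0.0013 and 0 for all genes tested.

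Because alpha and beta chains work as pairs, the transcripts of known partners were set against each other within each library. No test was run on these ratios, and a transcript ratio does not give the amount of either protein. For LFA-1 the Itgal to Itgb2 ratio was 1.18 ± 0.0139 in cocktail CD44loCD62L+, 1.14 ± 0.0140 in cocktail CD44+CD62L+ and 1.13 ± 0.00521 in cocktail CD44+CD62L- cells, then 0.615 ± 0.00159 in IL-2 cells and 0.722 ± 0.00721 in naive cells (SD, n = 3 each). Alpha transcript thus exceeded beta transcript in the cocktail populations, and the reverse held in IL-2 and naive cells. For VLA-4 the Itga4 to Itgb1 ratio was 0.674, 0.361 and 0.430 in the cocktail CD44loCD62L+, CD44+CD62L+ and CD44+CD62L- cells and 0.0363 in IL-2 cells, against 2.30 in naive cells. Naive cells were the one population with more Itga4 than Itgb1. For alpha4beta7, the Itga4 to Itgb7 ratio was 0.165, 0.107 and 0.112 in these cocktail populations and 0.0103 in IL-2 cells, against 0.144 in naive cells.

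For CD103 the Itgae to Itgb7 ratio was 0.00154, 0.00116 and 0.00109 in the cocktail CD44loCD62L+, CD44+CD62L+ and CD44+CD62L- cells and 0.0106 in IL-2 cells, against 0.113 in naive cells. The beta7 transcript stayed abundant throughout, so this ratio followed Itgae. For VLA-1 the Itga1 to Itgb1 ratio was highest in IL-2 cells, at 0.0736, and 0.00624, 0.00536 and 0.0130 in the cocktail populations in the same order, against 0.00231 in naive cells. For alphaVbeta3 the Itgav to Itgb3 ratio was 0.195, 0.284 and 0.263 in the cocktail populations and 0.839 in IL-2 cells, against 0.375 in naive cells. IL-2 cells thus had nearly matched alphaV and beta3 transcripts, and the other populations had more beta3.

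**Figure D3:**
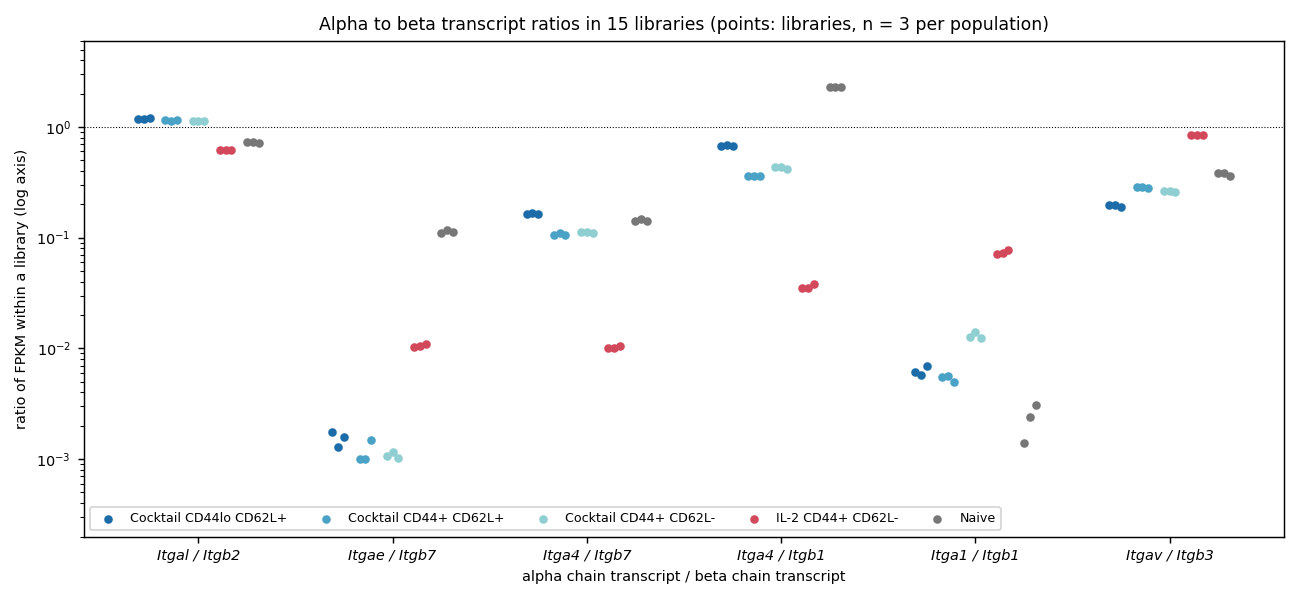
FPKM of an alpha chain gene divided by that of a beta chain partner within each of 15 libraries, on a log axis, for 6 pairs; points are libraries and colors populations. The dotted line marks a ratio of 1, which Itgal to Itgb2 exceeds in the cocktail populations and Itga4 to Itgb1 exceeds in naive cells.

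Summed over the 10 genes, integrin transcripts came to 847 ± 1.83 FPKM in cocktail CD44loCD62L+, 915 ± 3.60 FPKM in cocktail CD44+CD62L+, 942 ± 4.26 FPKM in cocktail CD44+CD62L-, 776 ± 4.32 FPKM in IL-2 and 838 ± 3.57 FPKM in naive cells. Itgb7 held 31.5%, 30.4% and 31.5% of this in the cocktail populations and 28.0% in IL-2 cells, against 41.1% in naive cells. Itgb2 held 22.4%, 24.4% and 24.1% in the cocktail populations and 34.8% in IL-2 cells, against 25.3% in naive cells. Itgal held 26.4%, 27.8% and 27.2% in the cocktail populations and 21.4% in IL-2 cells, against 18.3% in naive cells. Since a share falls when another gene rises, these are descriptions of the make-up and not of single genes.

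**Figure D4:**
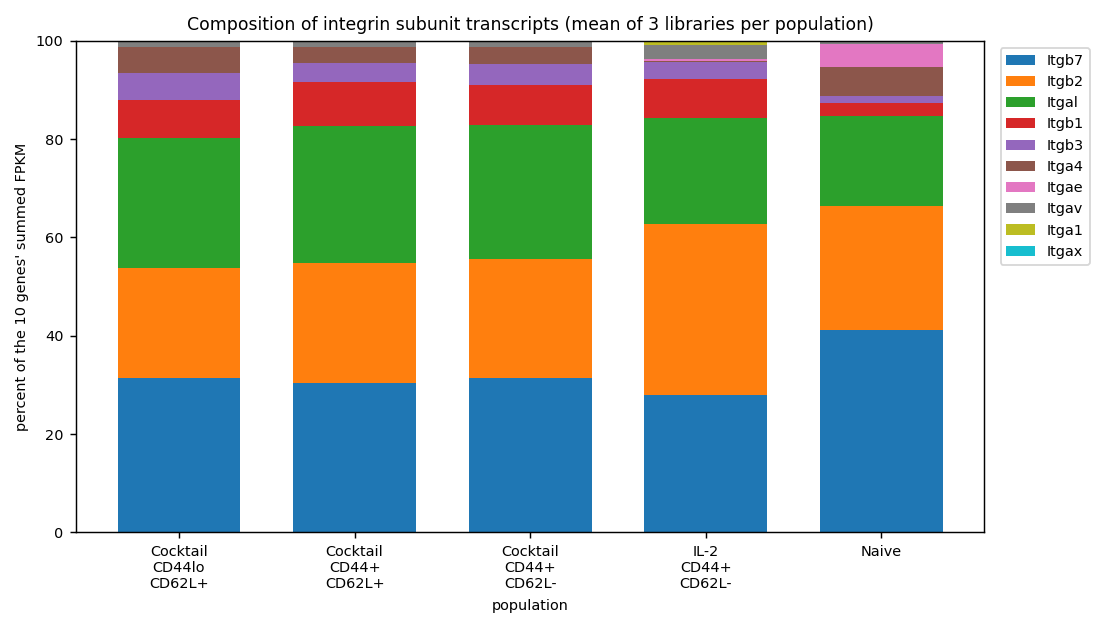
Share of each gene in the summed FPKM of the 10 integrin genes, in percent, as stacked bars from 0 for the mean of 3 libraries per population. Itgb7, Itgb2 and Itgal fill most of each bar, and Itgae holds 4.66% in naive cells and 0.297% or less in the cultured ones.

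Of 17 other integrin subunit genes, 7 were expressed highly enough to be tested. Itga7, a laminin-binding alpha chain that pairs with beta1, stood out. It averaged 23.3 ± 0.309 FPKM in cocktail CD44loCD62L+, 9.37 ± 0.367 FPKM in cocktail CD44+CD62L+ and 8.68 ± 0.221 FPKM in cocktail CD44+CD62L- cells, then 0.113 ± 0.0455 FPKM in IL-2 cells and 0.154 ± 0.0662 FPKM in naive cells. It was high in all cocktail populations and near 0 in the others. It passed the filter through the cocktail cells alone, so against IL-2 or naive cells a rise was the one call it could receive. Its log2 fold change was 3.12 in cocktail relative to IL-2 CD44+CD62L- cells (SE 0.0431, adjusted p = 6.03e-16) and 1.23 in cocktail CD44loCD62L+ relative to CD44+CD62L+ cells (SE 0.0431, adjusted p = 1.71e-11), and no other of the 7 was called in either comparison. Against naive cells Itga7 and the collagen-binding chain Itga2 rose in each cocktail population, Itga2 by 1.30, 1.49 and 1.65 in CD44loCD62L+, CD44+CD62L+ and CD44+CD62L- cells. Itga2 passed the filter through cultured cells alone, so both genes could be called against naive cells only as a rise. Itga6, a laminin-binding chain, fell to 4.07 ± 0.142 FPKM in IL-2 cells, against 13.4 ± 0.109 FPKM in naive cells, a log2 fold change of -1.51 (SE 0.0273, adjusted p = 1.74e-15). It also fell in the CD44+ cocktail populations, by 1.12 in CD62L+ and 1.02 in CD62L- cells, and had a difference of -0.85 in the CD44loCD62L+ cells. Itga5, the fibronectin receptor chain, fell in the 3 cocktail populations and Itga10 in IL-2 and CD44+ cocktail cells, each with means of at most 2.13 FPKM. Both passed the filter of 1 FPKM through naive cells alone, so a fall from naive cells was the one call they could receive. Itga2, Itga5 and Itga10 were named after their values were seen.

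Integrins bind weakly until talin and kindlin attach to the beta chain tail, a step driven by the GTPase Rap1. Of 33 activation and adaptor genes, 28 were tested. In cocktail relative to IL-2 CD44+CD62L- cells 2 rose and 2 fell, or 7.14% each, where 4.64% of all genes rose and 3.2% fell. The median log2 fold change was 0.03 against -0.01 for all genes. Fyb, the adaptor ADAP that links the T cell receptor to integrin activation, averaged 116 ± 1.21 FPKM in cocktail and 36.5 ± 0.493 FPKM in IL-2 cells, a log2 fold change of 1.65 (SE 0.0137, adjusted p = 4.98e-18). Cd226, a receptor that associates with LFA-1, averaged 69.8 ± 1.13 FPKM in cocktail and 21.7 ± 0.700 FPKM in IL-2 cells and rose by 1.64. The genes that fell were Rasgrp2, an exchange factor that loads Rap1, by 1.33, and Cytip, a binding partner of cytohesin-1, by 1.04. Rasgrp2 averaged 40.4 ± 0.967 FPKM in cocktail and 103 ± 0.398 FPKM in IL-2 cells. Between the cocktail gates limma called 0 of the 28, while 24, or 85.7%, had an unadjusted p under 0.05 in CD44loCD62L+ relative to CD44+CD62L+ cells and 19, or 67.9%, in CD44+CD62L+ relative to CD44+CD62L- cells. Of all genes 75.2% and 54.5% had one, so such a p is common between these libraries and sets the list in no way apart.

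Relative to naive cells, 1 of the 28 adaptor genes rose and 3, 4 and 4 fell in cocktail CD44loCD62L+, CD44+CD62L+ and CD44+CD62L- cells, and 2 rose and 5 fell in IL-2 cells. These shares, of 3.57% or 7.14% that rose and 10.7% to 17.9% that fell, stood against 11.6% to 17.6% and 6.11% to 13.7% of all genes. Ptk2, at 2.07 FPKM in naive cells, passed the filter through those cells alone, so a fall was the one call it could receive. The integrin-associated protein Cd47 was the gene that rose in the cocktail populations. It averaged 201 to 221 FPKM there and 229 FPKM in IL-2 cells, against 79.2 FPKM in naive cells, and rose by 1.33 to 1.52. Rasgrp2 fell by 1.65, 1.99 and 2.11 in cocktail CD44loCD62L+, CD44+CD62L+ and CD44+CD62L- cells, and its difference in IL-2 cells was -0.77. Fyb fell by 1.83 in IL-2 cells and differed by -0.18 to 0.20 in the cocktail populations. The core machinery was not called in any comparison. Talin 1 (Tln1) averaged 102 to 111 FPKM in cocktail and 104 FPKM in IL-2 cells, against 139 FPKM in naive cells. Kindlin-3 (Fermt3) averaged 168 to 178 FPKM in cocktail and 172 FPKM in IL-2 cells, against 118 FPKM in naive cells. Ptk2, Tln1 and Fermt3 were named after their values were seen.

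Of 21 genes for integrin ligands, 8 were tested. Spp1, which encodes osteopontin, a ligand of alphaV and alpha4 integrins, averaged 30.0 ± 0.957 FPKM in cocktail CD44loCD62L+, 41.7 ± 1.45 FPKM in cocktail CD44+CD62L+ and 36.9 ± 0.431 FPKM in cocktail CD44+CD62L- cells. It averaged 17.9 ± 0.864 FPKM in IL-2 cells, against 0.0661 ± 0.0327 FPKM in naive cells. It rose in each cultured population relative to naive cells, by 4.15 in IL-2 cells and by 4.86 to 5.33 in cocktail cells, and by 1.00 in cocktail relative to IL-2 CD44+CD62L- cells (SE 0.0362, adjusted p = 1.09e-11), at the minimum fold. In that comparison Lama5 and Thbs1, both under 5 FPKM, rose too, and Lamc1 fell by 1.00. Lama5 and Thbs1 passed the filter through cocktail cells alone, so a rise was the one call they could receive there. The LFA-1 ligand gene Icam1 averaged 25.6 to 31.9 FPKM in cocktail and 15.7 FPKM in IL-2 cells, against 70.0 FPKM in naive cells, and fell by 1.11 to 1.42 in cocktail and 2.09 in IL-2 cells. Cdh1, which encodes E-cadherin, the ligand of CD103, averaged 0.394, 0.396 and 1.12 FPKM in cocktail CD44loCD62L+, CD44+CD62L+ and CD44+CD62L- cells and 2.79 FPKM in IL-2 cells, against 0.144 FPKM in naive cells. It rose by 1.73 in IL-2 relative to naive cells (SE 0.0454, adjusted p = 1.10e-13). Spp1 and Cdh1 passed the filter through cultured cells alone, so against naive cells a rise was the one call they could receive. Lama5, Thbs1 and Cdh1 were named after their values were seen.

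TGF-beta signalling through Smad proteins is the known inducer of Itgae in CD8 T cells, and Runx3 takes part in it. Of 22 genes of TGF-beta signalling and tissue residency, 21 were tested. In cocktail relative to IL-2 CD44+CD62L- cells 3 rose and 1 fell, or 14.3% and 4.76%, where 4.64% of all genes rose and 3.2% fell. Smad3, a transducer of TGF-beta, averaged 23.8 ± 0.417 FPKM in cocktail and 4.78 ± 0.0498 FPKM in IL-2 cells, a log2 fold change of 2.104 (SE 0.0191, adjusted p = 1.19e-17). Eomes and Runx1, transcription factors, rose by 1.36 and 1.19. Runx1 averaged 0.873 FPKM in IL-2 cells, under the filter, so a rise was the one call it could receive there. Prdm1, which encodes the repressor Blimp-1, averaged 1.29 ± 0.119 FPKM in cocktail and 9.85 ± 0.103 FPKM in IL-2 cells and fell by 2.25. Relative to naive cells, 3 rose and 8, 9 and 8 fell in cocktail CD44loCD62L+, CD44+CD62L+ and CD44+CD62L- cells, and 4 rose and 9 fell in IL-2 cells. Those that fell were 38.1%, 42.9% and 38.1% of the 21 in these cocktail populations and 42.9% in IL-2 cells, where 6.11%, 8.44%, 8.59% and 13.7% of all genes fell. Those that rose were 14.3% in each cocktail population and 19.0% in IL-2 cells, where 11.6%, 14.4%, 13.9% and 17.6% of all genes rose. The 4 comparisons share the naive libraries. The receptor gene Tgfbr2 averaged 34.4 to 38.0 FPKM in cocktail and 39.2 FPKM in IL-2 cells, against 105 FPKM in naive cells. Runx3 was not called in any comparison and averaged 39.5 to 42.5 FPKM in cocktail and 58.2 FPKM in IL-2 cells, against 55.8 FPKM in naive cells. Runx1, Tgfbr2 and Runx3 were named after their values were seen. In cocktail CD44loCD62L+ relative to CD44+CD62L+ cells Klf2, a transcription factor of quiescent T cells, and its target S1pr1, an egress receptor, rose by 1.55 and 1.27. Both nevertheless fell in every cultured population relative to naive cells, Klf2 by 2.67 to 4.37 and S1pr1 by 2.28 to 3.92. They averaged 52.7 and 35.3 FPKM in the cocktail CD44loCD62L+ cells, against 340 and 176 FPKM in naive cells.

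For the 6 integrin genes that spanned at least 1 on the log2 scale, the genes with the most similar pattern were found by Pearson correlation of log2(FPKM + 1) over 15 libraries among 8431 genes. The libraries fall into 5 sets of technical replicates, so these correlations rest on 5 levels and describe likeness only. Itga4 was most like Ltb (r = 0.999) and Kctd12 (r = 0.998), with 37 genes at an r of at least 0.99. Ltb, which encodes lymphotoxin beta, averaged 708, 546 and 564 FPKM in cocktail CD44loCD62L+, CD44+CD62L+ and CD44+CD62L- cells and 162 FPKM in IL-2 cells, against 724 FPKM in naive cells. Itgae was most like Usp7 and Arf3 (r = 0.998 each), which also stood highest in naive cells. The correlation does not weigh the size of a change, and theirs were far smaller than that of Itgae. Usp7 averaged 66.3 FPKM in naive and 32.4 to 38.7 FPKM in cultured populations, and Arf3 93.6 and 44.9 to 55.6 FPKM. Itga1 was most like Crybg3 and Rap1a (r = 0.996 each), and Itgav was most like Tspan2 (r = 0.998) and Lap3 (r = 0.997). Rap1a averaged 185 FPKM in IL-2 cells and 106 to 131 FPKM in the others, also a far smaller change than that of Itga1. Itgb1 was most like Mapk3 (r = 0.998) and Nrp1 (r = 0.997), with 53 genes at an r of at least 0.99, and Itgb3 was most like Ppp2r5c (r = 0.997) and Ift52 (r = 0.995), with 15. Mapk3 averaged 47.9, 63.1 and 58.6 FPKM in the cocktail populations in that order and 47.6 FPKM in IL-2 cells, against 15.3 FPKM in naive cells.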

How the data were processed

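RNA-seq values of 15 libraries, 3 for each of 5 populations, were analysed. The deposited FPKM values are the authors' normalized values. The submitters' processing notes name TopHat2 2.0.9, Cuffdiff 2.1.1 and mm10, and the sources used here give neither the annotation nor the settings nor the use of strand. Of 30449 ratios of low values between libraries, 75.6% lay within 0.05 of a whole multiple, where chance gives 10%, so depth is given only as a ratio and no count test was run. Values were analysed as log2(FPKM + 1). limma 3.58.1 in R 4.3.3 was fitted, with a mean-variance trend and a term for population, to all 15 libraries and to the 11242 genes whose mean reached 1 FPKM in a population. Calls required an adjusted p (Benjamini-Hochberg, over all genes of the comparison) under 0.05 and a log2 fold change of 1 or more in either direction. With 3 libraries a side, the smallest two-sided p of an exact permutation test is 0.1, so none is given. Simulated data served to test the steps.

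The integrin genes, the other gene lists and the tests were chosen with earlier results of these data known. All 10 genes are described in each comparison. From each other list, a rule picked up to 4 called genes per comparison reaching a mean of 5 FPKM, the 2 highest and the 2 lowest fold changes. Genes outside that rule are marked. Not all genes it picked are described: Skap2, Cyth1 and Icam2 are left out. Prdm1, Cytip and Lamc1 are described in cocktail against IL-2 cells only, though also picked against naive cells. Zfp683 and the markers Adgre1, Ighm and Ly6g have no row under these symbols in the table analysed here. Alternatives were pseudocounts of 0.1 and 5 FPKM, no filter, a filter of 5 FPKM, median-ratio scaling, the replicate number as a block, a fit to only the 6 libraries compared, a minimum log2 fold change of 0.5, and leaving out each library in turn. Positions are GENCODE gene spans on GRCm38, the assembly that mm10 names, and Python 3.11.15 with matplotlib 3.10.9 drew the figures.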

Additional observations from a re-analysis of the deposited data

How the results depend on the processing

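Changing the pseudocount or the minimum fold changed the counts of called integrin genes, while scaling, the choice of filter or a fit to the libraries compared did not move a count by more than 1.5 times. With a pseudocount of 0.1 FPKM, 1 gene was called between the cocktail CD44+CD62L+ and CD44+CD62L- cells in place of 0, and 5 in place of 3 in each cocktail population relative to naive cells. With a pseudocount of 5 FPKM, 1 gene in place of 4 was called in cocktail relative to IL-2 CD44+CD62L- cells. With a minimum log2 fold change of 0.5 that comparison had 7, the cocktail CD44loCD62L+ against CD44+CD62L+ cells had 1, and the cocktail CD44loCD62L+, CD44+CD62L+ and CD44+CD62L- cells against naive cells had 5, 6 and 7. A larger pseudocount shrinks log2 fold changes by its construction, most at low FPKM. A filter of 5 FPKM removed Itga1 and Itgax, so these have no value under it, and low values also left Itgae, Itga1 and Itgax out of some fits to the libraries compared.

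Of 420 log2 fold changes computed without 1 library, 416 kept their direction and call. The other 4 were near 0 between the cocktail CD44+CD62L+ and CD44+CD62L- cells: Itgae, at -0.0014 with all libraries, ran from -0.051 to 0.025, and was above 0 without cocktail CD44+CD62L- replicate 2 or cocktail CD44+CD62L+ replicates 1 or 2. Itgax, at 0.0092, ran from -0.0012 to 0.017, and was below 0 without cocktail CD44+CD62L- replicate 2. All 42 counts of called integrin genes without 1 library were within 1.5 times the count with all. Counts over the other gene lists moved beyond 1.5 times in 72 of 616 cases under other settings and in 5 of 462 cases when a library was left out.

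Over all genes, 882 were called in cocktail relative to IL-2 CD44+CD62L- cells, and 1393, 379 and 3122 with a pseudocount of 0.1, of 5 and a minimum of 0.5. With the same 3 changes the 13 calls between the cocktail CD44+CD62L+ and CD44+CD62L- cells became 41, 7 and 120, and the 301 between CD44loCD62L+ and CD44+CD62L+ cells became 495, 178 and 1301. Against naive cells, a pseudocount of 5 and a minimum of 0.5 gave 2038 and 6702 calls in place of 3519 for IL-2 cells, and 1014 and 4770 in place of 1993, 1412 and 5616 in place of 2564, and 1393 and 5586 in place of 2530 for the cocktail CD44loCD62L+, CD44+CD62L+ and CD44+CD62L- cells.

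Libraries with the same replicate number did not deviate together: 2 of 30 correlations of their deviations were over 0.1, they ran from -0.238 to 0.184, and 3 of 15 libraries correlated best with their own number. With the replicate number as a block, 4 integrin genes were called in cocktail relative to IL-2 CD44+CD62L- cells and 6 between IL-2 and naive cells, as without it, and no other count of called integrin genes moved. Low genes such as Itgae in cocktail cells and Itga1 in naive cells rest on few fragments, whose number is not known.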

Other observations

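Marker lists of other lymphocytes were read in the same libraries, as values. The 5 CD4 T cell markers summed to 107 to 139 FPKM in cocktail libraries and 216 to 218 FPKM in IL-2 libraries, against 8.40 to 10.4 FPKM in naive libraries. Ctla4, which activated CD8 T cells express as well, was the highest of them in the cultured populations. It averaged 97.9 to 129.9 FPKM in the cocktail populations and 200.25 FPKM in IL-2 cells. These markers did not move together. Cd4 averaged at most 0.0197 FPKM in the cultured populations, against 0.305 FPKM in naive cells. Cd40lg averaged 0.413 to 1.84 FPKM there, against 7.797 FPKM in naive cells. Zbtb7b, like Ctla4, was higher in every cultured population than in naive cells, and Foxp3 only in IL-2 cells. The 4 NK cell markers summed to 6.99 to 9.96 FPKM in cocktail libraries and 10.7 to 10.96 FPKM in IL-2 libraries, against 1.43 to 1.83 FPKM in naive libraries, with Klre1 the highest throughout. The neutrophil and mast cell list summed to 15.4 to 20.1 FPKM in cocktail libraries and 2.12 to 2.61 FPKM in IL-2 libraries, against 24.5 to 28.7 FPKM in naive libraries, where S100a9 led. Their part in the integrin values was not tested.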
